A study of Homo sapiens with 3 samples.

Results

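The tumor treated with the CDK2 inhibitor dinaciclib was compared with the vehicle tumor, gene by gene, on the log2 FPKM scale (fragments scaled to transcript length and library size). A gene entered when the mean of its values in this pair was above 1 and neither value was -9, the number listed where no signal was recorded. That left 10777 of 29689 genes (36.3%), after 8640 genes with a -9 in the pair and 10272 genes with a lower mean were set aside. The tumors grew from SUM-149, an established human triple-negative (inflammatory) breast cancer cell line, injected with Matrigel into the mammary fat pads of female Nu/Nu mice, which lack mature T cells. The vehicle tumor, the dinaciclib tumor (CDK2i, 10 days) and the tumor labelled as given the EZH2 inhibitor EPZ6438 (EZH2i, 10 days) gave 1 library each. The labels give no dose, and a legend of the study names another EZH2 inhibitor for SUM-149 xenografts than the label does, so which one the EZH2i tumor received is uncertain. The interval between the last dose and collection and any step that set mouse reads apart are not given in the sources used here. With 1 library a group no difference has a replicate check, no p-value can be given, and treatment cannot be told apart from the difference between any 2 tumors.

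Dinaciclib binds the ATP site of several cyclin-dependent kinases. CDK1 and CDK2 with their cyclins drive entry into mitosis and S phase, whereas CDK9 with cyclin T phosphorylates the tail of RNA polymerase II and its pausing factors so that the polymerase leaves the promoter-proximal pause, and CDK12 sustains elongation along long genes. When transcription is blocked, short-lived mRNAs are the first to be lost, which is why MYC, MCL1 and immediate early mRNAs are commonly followed under CDK9 inhibitors. Many of those mRNAs carry AU-rich elements, repeats of the pentamer AUUUA in the 3' UTR that recruit decay proteins such as tristetraprolin.

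The libraries were of like size, with approximately 16800000 fragments in vehicle, 19100000 in CDK2i and 17500000 in EZH2i, as estimated from the smallest steps between low values. Their makeup differed. Cytosolic ribosomal protein genes took 15.4% of the vehicle sum of FPKM, 8.71% of that of CDK2i and 8.34% of that of EZH2i, mitochondrially encoded mRNAs took 21.6%, 14.2% and 19.1%, and the ribosomal RNA gene RNA28S5 stood at 5.75, 8.16 and 5.11. All 8 epithelial markers were above log2 FPKM 3 in each library. They mark epithelium and not species, and reads were placed on the human genome, so the human label was not tested. Fibroblast markers summed to 416 FPKM in vehicle and 549 in CDK2i, endothelial markers to 12.1 and 12.1, macrophage and leukocyte markers to 16.6 and 17.7, and the 2 red cell genes were at -9 in vehicle and below 0 in CDK2i. The fibroblast sum was carried by COL6A1 (7.15 in vehicle, 7.77 in CDK2i), FN1 (6.95, 7.35) and COL6A2 (6.80, 6.86). Of its 18 markers 9 were above 1 in vehicle and 8 in CDK2i. PDGFRA, PDGFRB, COL1A2, POSTN and THY1 were below 0 in both. The highest values of the endothelial and leukocyte sums were those of ENG and CD14. In bulk tissue, fewer cells of a type and less RNA per cell cannot be told apart.

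A gene was called when it differed by more than 2-fold and its higher value was above 3. These are the fold and level thresholds of the study, without the limma p-value it also required, which 1 library a group cannot give. Of the 6628 genes that reached this minimum, 214 were called higher in CDK2i (3.23%) and 534 lower (8.06%), so that 71.4% of the 748 calls were on the lower side. A gene weak in 1 tumor reaches the minimum only through its higher value and then had to differ, so shares called among weak genes are descriptions. The median change over the 10777 genes was -0.10, with quartiles of -0.53 and 0.27 and 5th and 95th percentiles of -1.33 and 0.82. Values were below vehicle in 6143 genes (57.0%). The sides had different shapes: at 3-fold 159 genes were lower and 87 higher and at 4-fold 88 and 50, but at 8-fold 10 were lower and 16 higher. The balance depended on scale and on the expression minimum. Centring both libraries on the median gene added 0.175 to each change and gave 340 higher and 337 lower, and with a minimum of 5 in place of 3 the calls were 105 higher and 91 lower. Making the summed FPKM equal added 0.149, and doing so with ribosomal and mitochondrial genes set aside added -0.145, so a median closer to 0 than these shifts can change sign with the scaling. Changes below are as deposited and can be read against the median of -0.10.

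The lower side lay among weakly expressed genes. By mean level, the median change was -0.29 between 1 and 2, -0.19 between 2 and 3, -0.12 between 3 and 4, and -0.03 between 4 and 5, and it was above 0 in the next bands, at 0.11, 0.16 and 0.17. In the highest band, above 8, the median of 192 genes was 0.01, with 14.06% called lower and 6.77% higher. That band holds many ribosomal protein and mitochondrially encoded genes, on the lower side, and several keratins with JUNB and IER3, on the higher. In the EZH2i tumor, set against the same vehicle, the band medians ran the other way, from 0.36 between 1 and 2 to -0.59 above 8. The bands are set by vehicle and CDK2i values and not by EZH2i values. That alone can tilt the EZH2i medians in this direction, and its part was not tested. Of the 534 genes called lower 417 had a mean under 4 (78.1%, against 44.9% of the genes at the minimum), and of the 214 called higher 99 did (46.3%).

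**Figure D1:**
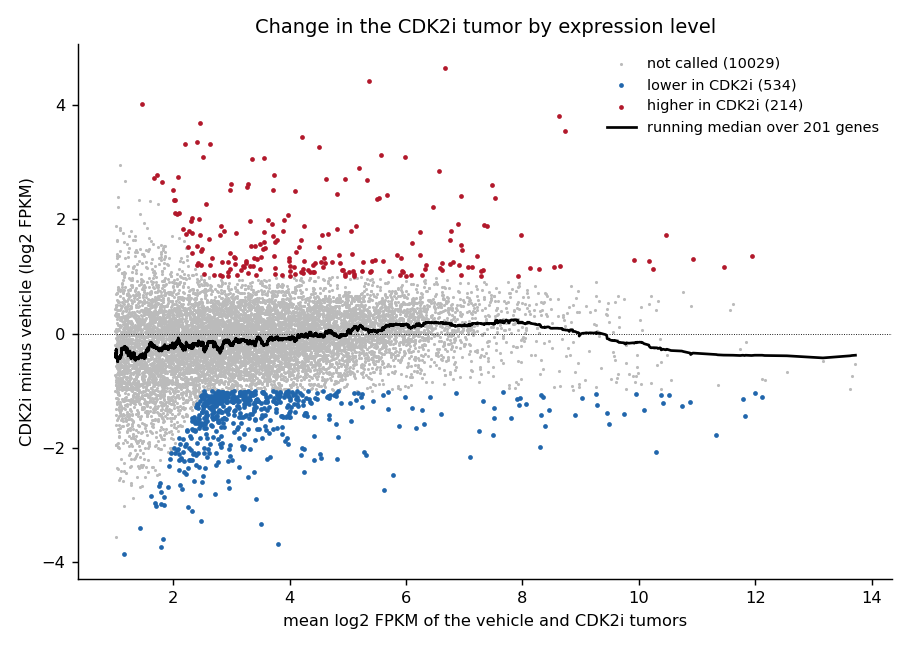
CDK2i minus vehicle (log2 FPKM) against the mean log2 FPKM of the 2 tumors for the 10777 genes, 1 point a gene and 1 library a tumor, with the running median as a black line. The 534 genes called lower (blue) crowd the left of the plot, whereas the 214 called higher (red) spread across it and include the largest single changes.

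The 15 largest decreases were mostly of weakly expressed genes with few exons and no common role. FKBPL, an immunophilin-like cochaperone partner, stood at 3.08 in vehicle, -0.78 in CDK2i and 2.93 in EZH2i, 14.5-fold lower in CDK2i on approximately 191 and 15 fragments (counting SE 0.39 log2). FADD, the adaptor that links death receptors to caspase-8, stood at 3.61, 0.03 and 3.77, 12.0-fold lower on approximately 351 and 33 fragments, with the limit that a gene model overlaps it. HPS6, a subunit of a lysosome-related organelle biogenesis complex, stood at 3.77, 0.73 and 3.43. In each of these genes the EZH2i tumor lay beside vehicle and the CDK2i tumor stood apart. OXSM, the mitochondrial ketoacyl synthase, stood at 3.28, 0.31 and 3.24, and the mitochondrial RNA helicase gene DDX28 at 3.34, 0.35 and 3.08. FAM212A, HDHD3 and CCDC71 were 13.2-fold, 9.65-fold and 8.55-fold lower. In 4 of the 15 the EZH2i tumor was below vehicle too by more than 1 log2 unit: APOC1, an apolipoprotein (5.63, 1.95 and 3.90), FOXI1, an ionocyte transcription factor (5.17, 1.84 and 3.47), DLX5, a homeobox factor (3.27, 0.41 and 1.81), and the clone-named AC007193.6.

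Of the 12 coding genes among these 15, 2 have a single exon, 5 have 2 exons and 3 have 3. Exon number was then compared over all genes. Across 9624 nuclear protein-coding genes, grouped by the exons of 1 representative transcript, the median change was -0.45 for 1 exon (167 genes), -0.29 for 2 (388), -0.30 for 3 (553), -0.15 for 4 to 5 (1381), -0.09 for 6 to 10 (2971), -0.03 for 11 to 20 (2891) and 0.07 above 20 (1273). The share called lower went from 27.03% of the 1-exon genes at the minimum to 1.68% of those with over 20 exons, against a background of 8.06%. The share called higher was 9.01% for 1 exon, 10.53% for 2 and 3.51% above 20, so few-exon genes were over the background of 3.23% on both sides. Genes with at most 3 exons made up 23.2% of the lower calls and 21.5% of the higher, against 10.5% at the minimum. In EZH2i the medians of the same classes went from -0.17 for 1 exon to 0.54 above 20.

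Among genes of like level the order was the same where levels were low. Between means of 1 and 2 the median was -0.99 for 1 exon (40 genes), -0.26 for 2 or more and -0.04 above 20. Between 3 and 4 it was -0.59 (27 genes), -0.11 and 0.02, and between 4 and 5 it was -0.44 (28 genes), -0.01 and 0.13. Between 5 and 6 it was 0.02 (12 genes), 0.12 and 0.24. Above 6 it was 0.57 (22 genes), 0.16 and 0.52. There the 1-exon genes were no longer lowest, while genes with over 20 exons stayed above those with 2 or more. By transcript length the order was not the same throughout: the medians of 1-exon genes and of genes with 2 or more exons were -0.03 and -0.17 up to 1500 nt, -0.67 and -0.10 from 1500 to 3000 nt, and -0.27 and -0.05 from 3000 to 6000 nt. An unspliced gene can also draw reads from residual genomic DNA or from an overlapping gene. Olfactory receptor genes, which are silent in most tissues, gave values above -9 for 8 of 53 in vehicle, 22 in CDK2i and 24 in EZH2i, with mean FPKM of 0.017, 0.032 and 0.046; their part in the exon pattern was not tested.

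Some of the 30 1-exon genes called lower and the 10 called higher are named here, after their values were seen, as examples. On the lower side was HEXIM1, the inhibitor that holds CDK9 and cyclin T in the inactive 7SK particle, at 4.74 in vehicle, 2.59 in CDK2i and 4.55 in EZH2i, 4.44-fold lower on approximately 1626 and 417 fragments. RRS1 and UTP3, both ribosome assembly factors, stood at 3.53, 1.24 and 3.82 and at 4.20, 2.21 and 4.46. SDHAF1, an assembly factor of succinate dehydrogenase, stood at 4.06, 1.83 and 3.68, and TBCC, a tubulin folding cofactor, at 3.69, 1.86 and 3.40. GAS1, a membrane protein of growth-arrested cells, stood at 3.09, 0.43 and 2.65. In these 6 the EZH2i value was nearer to vehicle than to CDK2i. On the higher side were JUN (5.15, 7.99 and 5.06), JUNB and JUND (6.06, 7.17 and 5.50), bZIP transcription factors, together with IER5L, RHOB, the stress-induced GTPase, and SFN, the epithelial 14-3-3 sigma protein (9.68, 10.81 in CDK2i).

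**Figure D2:**
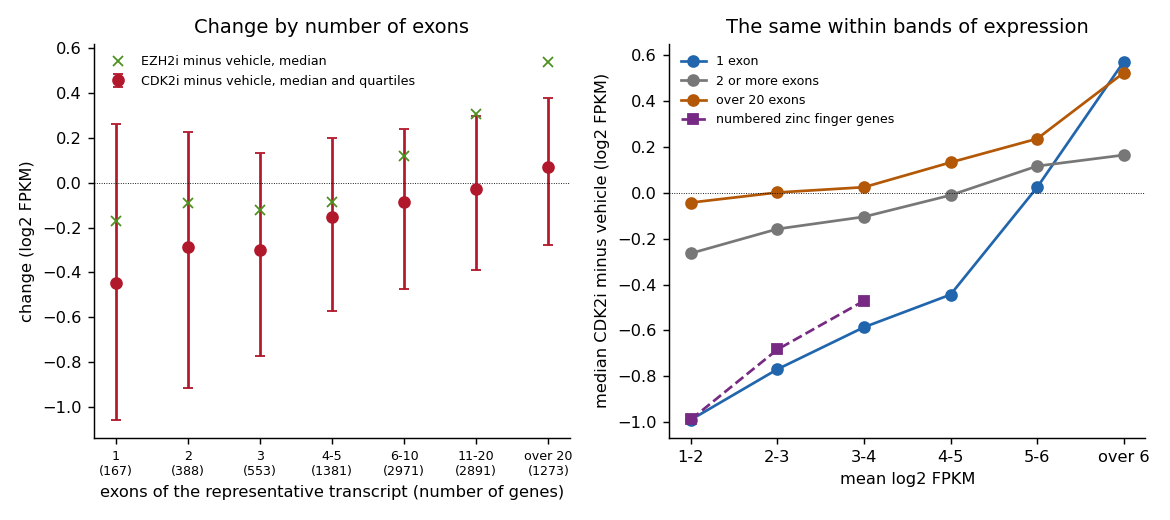
Left, median change by number of exons, with quartiles for CDK2i minus vehicle (red) and the median for EZH2i minus vehicle (green crosses), in log2 FPKM, numbers of genes in brackets. Right, median CDK2i change within bands of mean log2 FPKM for genes with 1 exon (blue), 2 or more (grey), over 20 (brown) and numbered zinc finger genes (purple squares). The blue line lies lowest up to a mean of 6 and, above 6, highest and close to the brown.

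Numbered zinc finger genes were mostly on the lower side. They were taken by name alone, but the class was looked at after values had been seen. Many encode DNA-binding repressors that recruit KAP1 to repeats, but others have different roles. Of 160 members 137 were below vehicle, and the median change was -0.75. Of the 56 at the minimum 18 were called lower (32.14%, background 8.06%). The 1 called higher (1.79%, background 3.23%) was ZNF185, a LIM protein. The median in EZH2i was 0.04. ZNF691 stood at 3.17 in vehicle, 0.22 in CDK2i and 3.15 in EZH2i, ZNF133 at 4.23, 1.66 and 3.97, ZNF394 at 3.57, 1.49 and 3.57 and ZNF3 at 3.60, 1.59 and 3.47. In each of the 4 vehicle and EZH2i lay close together and CDK2i at least 4-fold below vehicle. Against other coding genes of like level the median was -0.99 and -0.25 between means of 1 and 2, -0.68 and -0.16 between 2 and 3, and -0.47 and -0.11 between 3 and 4, while for the 13 above 4 it was 0.17 and 0.07. These genes have a median of 5 exons and 3606 nt, against 9 exons for the other coding genes.

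Noncoding transcripts were lower as well. The 135 long noncoding RNAs with a gene symbol had a median of -0.40, with 19 of 62 at the minimum called lower (30.65%, background 8.06%) and none higher. The 746 clone-named genes had a median of -0.40, with 64 of 216 called lower (29.63%) and 13 higher (6.02%, background 3.23%). Clone-named genes supplied 12.0% of the lower calls against 3.26% of the genes at the minimum. The hosts of small nucleolar RNAs stood out by size. These spliced transcripts carry snoRNAs in their introns, and the spliced remainder is degraded quickly by nonsense-mediated decay. Of 17 members 16 were below vehicle, the median was -1.09, and 8 of 15 at the minimum were called lower (53.33%). SNHG12 stood at 5.62 in vehicle, 3.45 in CDK2i and 5.73 in EZH2i, SNHG7 at 5.57, 3.46 and 4.78, and GAS5 at 8.19, 6.03 and 7.16. SNHG5, SNHG8, ZFAS1, EPB41L4A-AS1 and TAF1D, which is a protein-coding gene, were the other 5. GAS5 and several of these hosts are also 5' TOP RNAs, whose first bases are a pyrimidine tract read by the growth-regulated translation machinery.

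The ribosomal protein genes, the main 5' TOP class, were all below vehicle (78 of 78, median -0.90; 29 of 75 called lower, 38.67% against 8.06%, and none higher). RPS21 stood at 11.33 in vehicle, 9.25 in CDK2i and 9.23 in EZH2i, RPS29 at 9.30, 7.32 and 7.16, and RPS18 at 12.22, 10.45 and 10.57. Here the 2 treated tumors lay together and the vehicle apart, and the EZH2i median was -1.05. Both differences contain the same vehicle library. Among other 5' TOP genes, which include translation factors and the snoRNA hosts GAS5 and SNHG1, 18 of 21 were below vehicle, with a median of -0.27. Of these 21, 3 were called lower (14.29%, background 8.06%), GAS5 among them. EEF1B2, a nucleotide exchange factor of elongation, stood at 8.56, 7.31 and 7.58, and TPT1, the translationally controlled tumor protein, at 11.06, 9.98 and 10.01. The 13 mitochondrially encoded mRNAs, transcribed by their own polymerase, were all lower in CDK2i, with a median of -0.81 there and -0.48 in EZH2i. Of the 13, 3 were called lower (23.08%, background 8.06%): MT-ND6, MT-ND1 and MT-ND3, subunits of complex I. MT-ND3 stood at 12.51 in vehicle, 11.48 in CDK2i and 11.39 in EZH2i. Mitochondrial ribosomal protein genes had a median of -0.31 (57 of 69 below vehicle; 5 of 64 called lower, 7.81%, near the background of 8.06%), and nuclear respiratory chain genes one of -0.09 that turned to 0.09 when both libraries were centred on the median gene. NDUFA11, a complex I subunit, was an exception within that list at 3.5, 0.78 and 3.33.

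Genes of the cycle that dinaciclib is meant to arrest were lower by modest amounts. Of 31 mitosis genes 27 were below vehicle with a median of -0.40, and 5 of 24 at the minimum were called lower (20.83%, background 8.06%) and none higher, whereas the EZH2i median was 0.96. AURKA, the centrosomal mitotic kinase, was 4.03-fold lower, at 4.32 in vehicle, 2.31 in CDK2i and 5.16 in EZH2i. CENPA, the centromeric histone, stood at 3.24, 2.10 and 4.02, ESPL1, the separase that cleaves cohesin, at 3.83, 2.60 and 4.46, and CDCA8, a chromosomal passenger subunit, at 4.02, 2.86 and 4.94. All 4 were lowest in CDK2i and highest in EZH2i. DNA replication genes had a median of -0.19 (29 of 38 below vehicle; 3 of 27 called lower, 11.11%, near the background of 8.06%), which moved to -0.02 when centred on the median gene. CDT1, which licenses origins, stood at 4.74, 3.51 and 4.65, and CDC6, its loading partner, at 2.60, 0.80 and 3.29, below the minimum for a call. Of 14 cyclin and CDK inhibitor genes 11 were lower with a median of -0.50. CDKN1B, which encodes the CDK2 inhibitor p27, was called lower at 4.16, 2.64 and 4.31, and CCNE1, the cyclin E1 partner of CDK2, stood at 2.66, 1.53 and 3.22. Replication-dependent histone genes, whose mRNAs lack poly(A) tails, had a median of 0.26 with none of 7 called (background 3.23% higher and 8.06% lower). The value depends on the RNA selection used, which is not given in the sources used here.

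None of the 9 dinaciclib target kinases and relatives at the minimum was called. Over all genes 3.23% were called higher and 8.06% lower, so none among 9 is little different from that background. Of the 16 members 12 were below vehicle, with a median of -0.18. CDK9 stood at 5.24 in vehicle, 4.39 in CDK2i and 4.76 in EZH2i, the largest decrease of the list at 1.80-fold. CDK7, the kinase that activates other CDKs, stood at 3.82, 3.05 and 3.98, CDK12 at 2.15, 1.67 and 3.10, CDK1 at 4.25, 3.97 and 5.35, CDK5 at 3.47, 3.23 and 3.07 and CDK2 at 2.88, 2.83 and 3.54. Each of these 6 changes lay inside the range of genes of like level, which for CDK9 was -1.07 to 0.86. The repair genes that depend on CDK12 for full-length transcription had a median of -0.22 (14 of 17 lower), which became -0.01 relative to genes of like level. In that list PALB2, the partner of BRCA2, stood at 2.07, 0.55 and 2.54. EZH2 itself, the methyltransferase of PRC2, stood at 2.94, 2.32 and 3.83, and 9 of 11 PRC2 genes were below vehicle with a median of -0.13, which became 0.05 when centred on the median gene. The 500 coding genes spanning over 200000 bases had a median of 0.14 in CDK2i and 0.52 in EZH2i. Coding genes spanning up to 3000 bases had medians of -0.12 and -0.46. Any part of CDK12 in the change by span was not tested. Spliceosome and SR protein genes had a median of -0.22. Of 31 at the minimum 1 was called lower (3.23%, background 8.06%), LUC7L, a U1 snRNP-associated factor (5.90, 3.72 and 5.59).

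FOS and other immediate early genes were among the largest increases. Immediate early genes, mostly of transcription factors, are induced within minutes of growth factor or stress signals without new protein synthesis. They were above vehicle in 27 of 30 members, with a median of 1.32 against -0.10 over all genes. Of the 26 at the minimum 19 were called higher (73.08%, background 3.23%) and none lower, and the EZH2i median of the list was -0.07. FOS was the largest increase of all, at 4.36 in vehicle, 9.0 in CDK2i and 5.22 in EZH2i, from 20.5 to 511 FPKM or 25-fold, on approximately 724 and 20574 fragments (counting SE 0.055 log2). The middle 95% of the 200 genes nearest in mean lay between -0.72 and 1.64. JUNB, a FOS partner in the AP-1 dimer, stood at 6.97, 10.51 and 6.49, 11.7-fold higher. IER3, an antiapoptotic early response protein, stood at 6.72, 10.53 and 7.71, 14-fold higher. EGR1, the zinc finger factor of mitogen responses, stood at 6.18, 8.78 and 4.89, FOSB at 0.97, 4.29 and 0.57, NR4A1, an orphan nuclear receptor, at 4.01, 7.13 and 4.04, and KLF10 at 3.75, 6.64 and 4.37. In each of these 7 genes the EZH2i value was nearer to vehicle than to CDK2i, and in JUNB, EGR1 and FOSB it was below vehicle. JUNB overlaps HOOK2, IER3 overlaps IER3-AS1 and NR4A1 overlaps NR4A1AS, and reads of overlapping genes are uncertain because strand use in counting is not given. The same limit holds for other genes named in the text, among them LIF (LIF-AS1 and LIF-AS2), HEXIM1 (HEXIM2-AS1) and MYC (CASC11). The 3 members below vehicle were SRF (-0.03), the factor that reads serum signals at these promoters, IRF1 (-0.37) and CTGF (-0.37).

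Feedback genes divided. DUSP1, the nuclear phosphatase that shuts off JNK and p38 and is itself an early gene, stood at 3.15 in vehicle, 7.57 in CDK2i and 3.81 in EZH2i, from 8.88 to 190 FPKM or 21.4-fold, on approximately 300 and 7336 fragments. PHLDA2, an imprinted growth regulator, stood at 4.46, 6.88 and 5.53, and DUSP5 and DUSP6, phosphatases of ERK, were 2.66-fold and 2.36-fold higher. The other phosphatases DUSP4 (4.08, 3.38 and 4.38) and DUSP10 (4.02, 3.26 and 4.20) were below vehicle, and SPRY2 (1.36, 1.12 and 2.58) and SPRY4 (1.10, 0.99 and 2.78), which restrain receptor tyrosine kinase signals, were near it in CDK2i and over 1 log2 unit above it in EZH2i. The 14 feedback members had a median of 0.09 in CDK2i, which turned to -0.05 with sums equal but for ribosomal and mitochondrial genes, and 1.08 in EZH2i. Among ID, HES, SOCS and SMAD genes the median was 0.67 (8 of 12 higher), led by SOCS3, the inhibitor of JAK signals (2.49, 5.93 and 2.80), HES1, the Notch-induced repressor (6.34, 8.71 and 6.01), and ID1, an inhibitor of bHLH factors (7.12, 8.84 and 6.42). HEY1, another Notch target, went the other way (1.72, 0.30 and 1.60).

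Cytokine and growth factor mRNAs with AU-rich 3' UTRs were above vehicle in 16 of 18 members, with a median of 0.97, and 9 of 16 at the minimum were called higher (56.25%, background 3.23%) and none lower. TNF stood at 0.74 in vehicle, 4.08 in CDK2i and 2.43 in EZH2i, 10.2-fold higher on approximately 47 and 545 fragments. LIF, a cytokine of the IL-6 family, stood at 2.86, 6.13 and 3.51, 9.59-fold higher, and HBEGF, an EGFR ligand, at 3.27, 5.98 and 4.99. In this list the EZH2i median, 1.70, was above that of CDK2i, and the genes differed in which tumor was highest: IL8 stood at 3.83, 4.54 and 7.77 and IL1B at 2.45, 3.34 and 5.58, whereas TNF, LIF and CCL20 were highest in CDK2i. CXCL1 (7.25, 6.94 and 8.97) and PTGS2, which makes prostaglandins (2.10, 2.05 and 3.65), were not higher in CDK2i. IL17C, an epithelial cytokine outside the list, was among the 15 largest increases at -0.55, 3.47 and 0.67, on approximately 12 and 224 fragments.

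**Figure D3:**
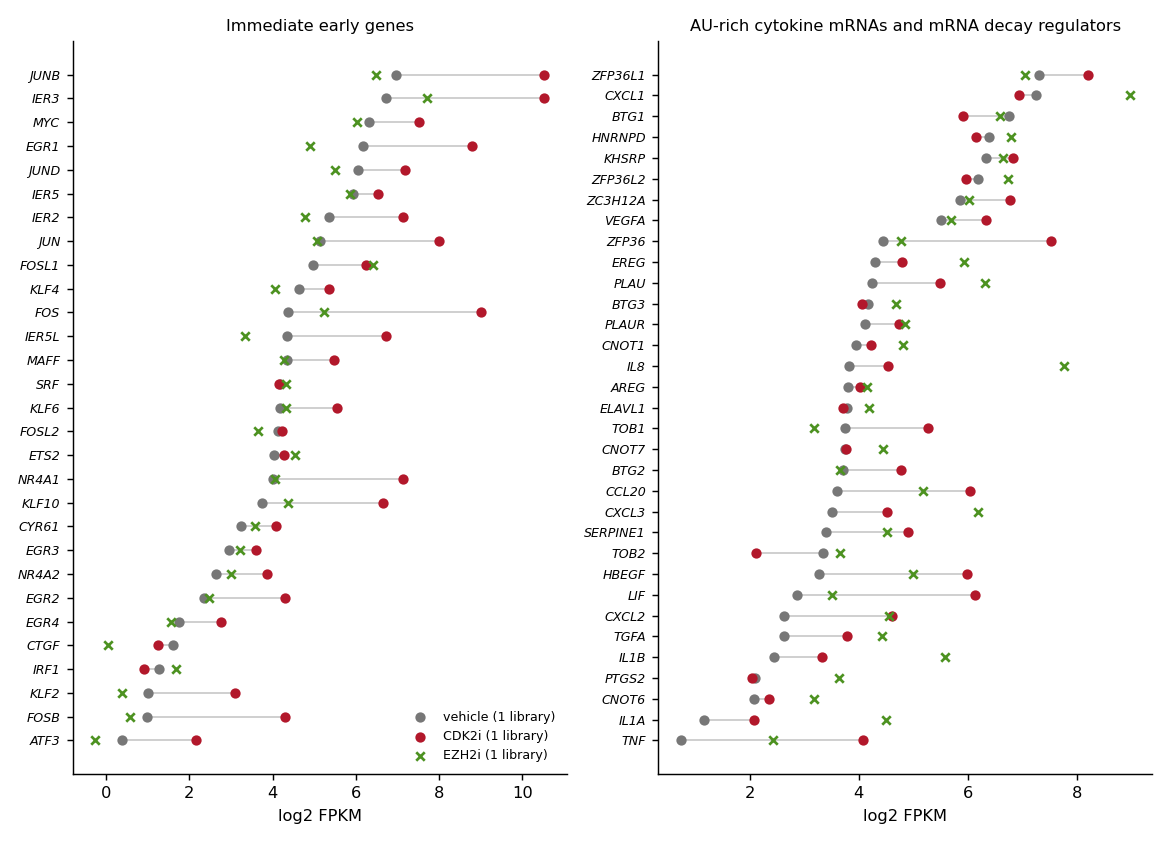
log2 FPKM of each member gene in the vehicle (grey), CDK2i (red) and EZH2i (green crosses) tumors, 1 library each, for immediate early genes (left) and for AU-rich cytokine mRNAs and mRNA decay regulators (right). In the left panel red lies to the right of grey in all but 3 of the genes shown, with green mostly beside grey, whereas on the right green is often the highest.

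The AU-rich stretches of these mRNAs are shown because they are the feature by which short-lived mRNAs are commonly recognised. Each line is 30 bases of the 3' UTR of the GRCh37 transcript, written as DNA with the pentamer ATTTA in capitals. The genes were chosen after their values were seen, and DDIT3 and GATA3, which were lower in CDK2i, are printed beside those that were higher.
FOS, chr14:75748760-75748789, plus strand: ttgtgtttttaATTTATTTAttaagatgga
DUSP1, chr5:172195644-172195673, minus strand: ggctggtccttATTTATTTAacttcacccg
TNF, chr6:31545778-31545807, plus strand: tATTTAttATTTATTTAttATTTATTTAtt
LIF, chr22:30636511-30636540, minus strand: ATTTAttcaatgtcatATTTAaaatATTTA
IER3, chr6:30711425-30711454, minus strand: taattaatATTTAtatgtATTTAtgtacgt
CXCL2, chr4:74963303-74963332, minus strand: cttctATTTATTTATTTATTTATTTAtttg
DDIT3, chr12:57910401-57910430, minus strand: agagattgtacATTTATTTAttactgtccc
GATA3, chr10:8116736-8116765, plus strand: ctgttgtataaATTTATTTActgctagtct

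The printed windows do not separate the sides. FOS, with 5 ATTTA in 806 nt of 3' UTR, was 4.64 log2 units higher, and GATA3, with 5 in 1175 nt, was 2.14 lower (4.05 in vehicle, 1.91 in CDK2i and 2.74 in EZH2i). DDIT3, the stress factor CHOP, has the same nonamer TTATTTATT as TNF and stood at 2.78, 0.12 and 2.04. Over all genes with a 3' UTR, TTATTTATT was present in 10.8% of 194 called higher, 5.61% of 428 called lower and 6.59% of 6220 at the minimum. Density of ATTTA was 2.24, 1.78 and 1.96 per 1000 nt. Genes with more than 8 ATTTA had a median change of 0.08 and those with none -0.09, with 3' UTR length not held constant. Of genes at the minimum with 2 or more nonamers, 4 of 16 were called higher with a 3' UTR of at most 1000 nt, 1 of 15 with one of 1000 to 2000 nt, and 2 of 66 (3.03%, background 3.23%) with a longer one, and 2, 1 and 1 were called lower. A match is a description of the letters and not evidence of decay.

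Decay factors that act on such mRNAs were themselves higher in part. ZFP36, which encodes tristetraprolin, stood at 4.44 in vehicle, 7.53 in CDK2i and 4.78 in EZH2i, 8.5-fold higher. TOB1 and BTG2, antiproliferative adaptors of the CCR4-NOT deadenylase, were 2.87-fold and 2.09-fold higher, and TOB2 was 2.34-fold lower. The 15 decay genes had a median of 0.27, and the deadenylase subunits CNOT1 (3.95, 4.22 and 4.81) and CNOT7 (3.74, 3.76 and 4.44) and the stabilizing protein gene ELAVL1 (3.78, 3.72 and 4.19) differed little.

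The survival genes that CDK9 inhibitors commonly deplete were not lower as a group, with 6 of 11 above vehicle and a median of 0.15. MCL1, the antiapoptotic BCL2 relative, stood at 5.52 in vehicle, 5.66 in CDK2i and 6.58 in EZH2i, a difference of 0.15 that lay inside the range of genes of like level (-0.71 to 0.89). MYC stood at 6.32, 7.51 and 6.03, 2.29-fold higher in CDK2i, and also inside that range (-0.71 to 1.56). PIM3, a survival kinase, was 2.76-fold higher, CDC25A, the phosphatase that activates CDK2, stood at 1.99, 0.49 and 2.53, and XIAP, a caspase inhibitor, at 1.89, 1.37 and 2.46. NF-kB feedback genes had a median of 0.01, or -0.13 with sums equal but for ribosomal and mitochondrial genes. In that list TNFAIP3, the A20 deubiquitinase, stood at 2.21, 3.96 and 4.33, and NFKBIE, an inhibitor of NF-kB, at 3.27, 1.80 and 3.21. Stress and checkpoint genes with short-lived mRNA had a median of 0.43, with 11 of 17 above vehicle. Of 14 at the minimum 4 were called higher (28.57%, background 3.23%) and 2 lower (14.29%, background 8.06%). DDIT4, the mTOR inhibitor REDD1, stood at 6.46, 8.34 and 6.0, SGK1, a glucocorticoid-induced kinase, at 4.20, 6.07 and 4.17, and CDKN1A, which encodes p21, at 6.16, 6.77 and 6.45. RND3 and HEXIM1 were the 2 called lower.

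Epidermal differentiation and keratin genes were also on the higher side. Cornified envelope genes encode the proteins crosslinked beneath the membrane of dying keratinocytes. They were above vehicle in 23 of 23 members of a list of 37, with a median of 1.84. Of 22 at the minimum 17 were called higher (77.27%, background 3.23%). Of the other 14 on the list, 3 had a -9 in the pair and 11 a mean too low to enter. SPRR1B, a small proline-rich crosslinking protein, stood at 40.9 FPKM (vehicle), 190 (CDK2i) and 34.3 (EZH2i). SPRR2D stood at 5.06, 34.5 and 14.3 FPKM and CRCT1, a late envelope gene, at 1.53, 19.7 and 12.4 FPKM. SPRR1A, SPRR1B, SPRR2D, CRCT1 and LCE3D lie between positions 152486958 and 153014407 of chromosome 1 in GRCh37. The members differed in EZH2i: SPRR1A and SPRR1B stayed below vehicle there, whereas CRCT1 and LCE3D stood near their CDK2i level. KRT10, an early differentiation keratin, did not differ (8.99 and 8.99 in the pair) and LOR and FLG, the late envelope genes loricrin and filaggrin, were below the level for membership. The 6 kallikrein genes, which encode skin serine proteases and lie together on chromosome 19, had a median of 1.77. They are outside the lists and were looked at after their values were seen. KLK14 stood at 15.8, 102 and 12.3 FPKM in the same order, and KLK10 at 5.48, 31.3 and 9.41 FPKM.

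Basal keratin, integrin and laminin genes were above vehicle in 20 of 20 members with a median of 1.20, and 11 of 20 were called higher (55.0%, background 3.23%). The EZH2i median of the list was 0.48, against 0.15 over all genes. KRT75, the largest difference of the list, stood at 1.71 in vehicle, 4.23 in CDK2i and 5.15 in EZH2i. KRT16, a keratin of wounded and hyperproliferative epidermis, stood at 9.60 in vehicle, 11.32 in CDK2i and 9.59 in EZH2i. KRT6C stood at 5.93, 7.85 and 6.49, and KRT14, the basal layer keratin, at 11.26, 12.61 and 11.31. The smallest differences were those of TP63, the master factor of basal cells (4.15, 4.42 and 5.28), and EGFR (4.94, 5.31 and 5.99). KRT6A, KRT6B and KRT6C are near-identical copies, and how reads were divided among them is uncertain. The 8 epithelial markers, 5 of them keratins, summed to 5280, 12400 and 4970 FPKM in vehicle, CDK2i and EZH2i, but that sum is carried by KRT14, KRT5 and KRT17. The others differed less: EPCAM stood at 6.05 and 6.21 in the pair, KRT8 at 7.41 and 7.65, CDH1 at 5.03 and 5.49 and KRT18 at 4.89 and 5.40. Luminal marker genes had a median of 0.16. Of 14 at the minimum 3 were called lower (21.43%, background 8.06%), FOXI1, GATA3 and XBP1. The 1 called higher (7.14%, background 3.23%) was ELF3, an epithelial ETS factor (3.70, 5.43 and 1.85).

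**Figure D4:**
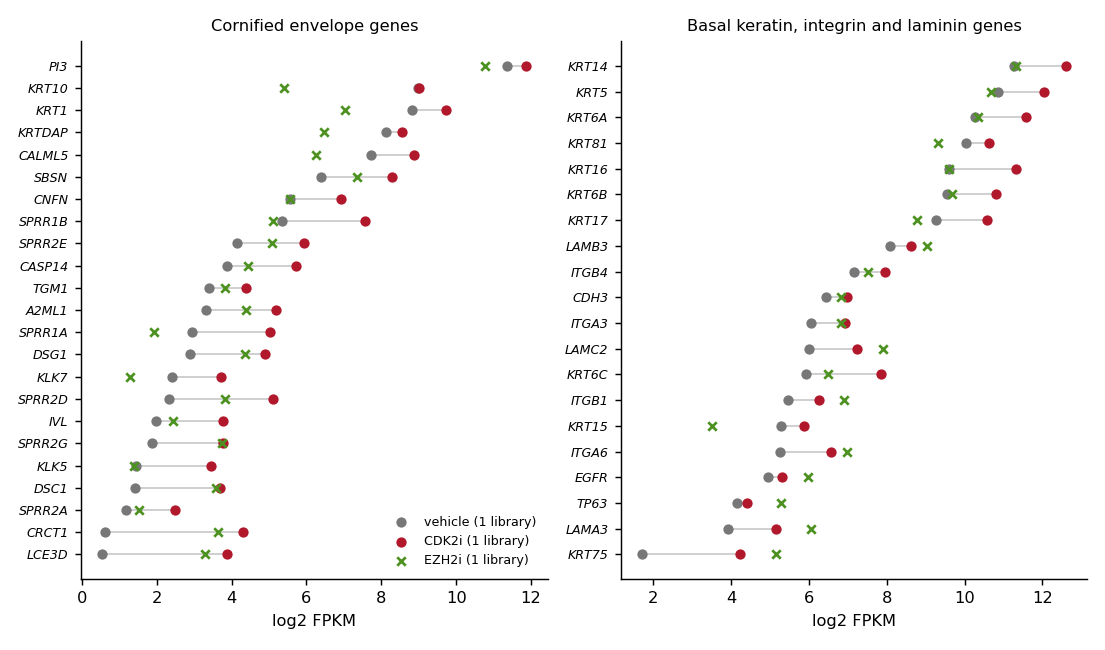
log2 FPKM of each member gene in the vehicle (grey), CDK2i (red) and EZH2i (green crosses) tumors, 1 library each, for cornified envelope genes (left) and basal keratin, integrin and laminin genes (right). Red is at or to the right of grey in all 23 and all 20 genes, and green changes place from gene to gene.

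Promoters of the 2 sides were compared by their letters in RefSeq sequences of 250 bases before to 50 after each start (GRCh38.p14; 8015 of the 10777 genes matched, 141 of those called higher and 363 of those called lower). The core element TATAAA was searched on the gene strand in the 60 bases before the start. It was found in 12.8% of the promoters of genes called higher (18), 2.2% of those called lower (8), 2.2% of 5183 at the minimum and 3.09% of all 27305 promoters. It was found in 4 of 22 immediate early genes and 7 of 17 cornified envelope genes, but in none of 8 basal keratin and integrin genes. The AP-1 sites TGACTCA and TGAGTCA, searched over 300 bases on both strands (each is the reverse complement of the other), were found in 9.93% of promoters of genes called higher (14), 3.31% of those called lower, 3.32% at the minimum and 4.92% of all. One was held by 7 of 17 cornified envelope, 1 of 22 immediate early and 1 of 8 basal keratin and integrin promoters. CCAAT was found in 31.9% of the higher, 42.1% of the lower and 36.7% at the minimum, and the CRE TGACGTCA in 2.13%, 3.58% and 3.49%. A match of letters is no evidence of binding.

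The 60 bases before the start are shown for 4 genes of the higher side that hold TATAAA (capitals), in GRCh38.p14.
FOS, chr14:75278768-75278827, plus strand: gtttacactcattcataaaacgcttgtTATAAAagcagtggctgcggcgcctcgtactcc
JUNB, chr19:12791426-12791485, plus strand: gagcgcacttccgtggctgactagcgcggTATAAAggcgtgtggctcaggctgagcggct
DUSP1, chr5:172771196-172771255, minus strand: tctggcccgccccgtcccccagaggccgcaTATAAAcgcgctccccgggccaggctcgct
TNF, chr6:31575505-31575564, plus strand: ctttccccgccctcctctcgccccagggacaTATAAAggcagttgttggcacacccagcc
For the envelope genes, 31 bases around the AP-1 site (capitals) are shown, which lies upstream of the start in these 3 genes.
IVL, chr1:152908411-152908441, plus strand: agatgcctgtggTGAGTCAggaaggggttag
SPRR1A, chr1:152983961-152983991, plus strand: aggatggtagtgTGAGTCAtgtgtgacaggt
SPRR1B, chr1:153031050-153031080, plus strand: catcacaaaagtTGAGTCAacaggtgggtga
IVL, which encodes the envelope scaffold involucrin, stood at 1.98 in vehicle, 3.77 in CDK2i and 2.42 in EZH2i, and SPRR1A at 2.93, 5.01 and 1.92. Both were highest in CDK2i, the tumor in which FOS and JUNB, components of AP-1, were highest too, and any link was not tested. SOCS3, ZFP36 and NR4A1 held no TATAAA in the window.

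Some small RNAs without poly(A) tails were also among the increases, as was ribosomal RNA. SNORD3A and SNORD3B-1, which encode the U3 RNA that guides ribosomal RNA cleavage, were 8.5-fold and 8.40-fold higher, at 0.97, 4.06 and 1.97 and at 2.03, 5.10 and 2.43. RNU12 and RNU4ATAC, minor spliceosome RNAs with a mean too low for membership, stood at -2.48, 1.19 and -2.54 and at -1.09 and 1.30 with -9 in EZH2i. RNA28S5 was 2.41 log2 units higher. The small RNA genes SCARNA2 and SCARNA9 were higher too, at 0.74, 3.25 and 1.80 and at 0.76, 1.83 and 0.83. RNU11 stood at 2.76 in CDK2i and at -9 in vehicle and EZH2i. Of the RNAs of this kind looked at, only RN7SL1 and RPPH1 were not higher. RN7SL1, of the signal recognition particle, stood at 9.88, 9.69 and 8.53, and RPPH1, of RNase P, at 1.90, 1.60 and -0.90. How completely poly(A) RNA was selected in each library is not given, and its part in the differences above was not tested.

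**Figure D5:**
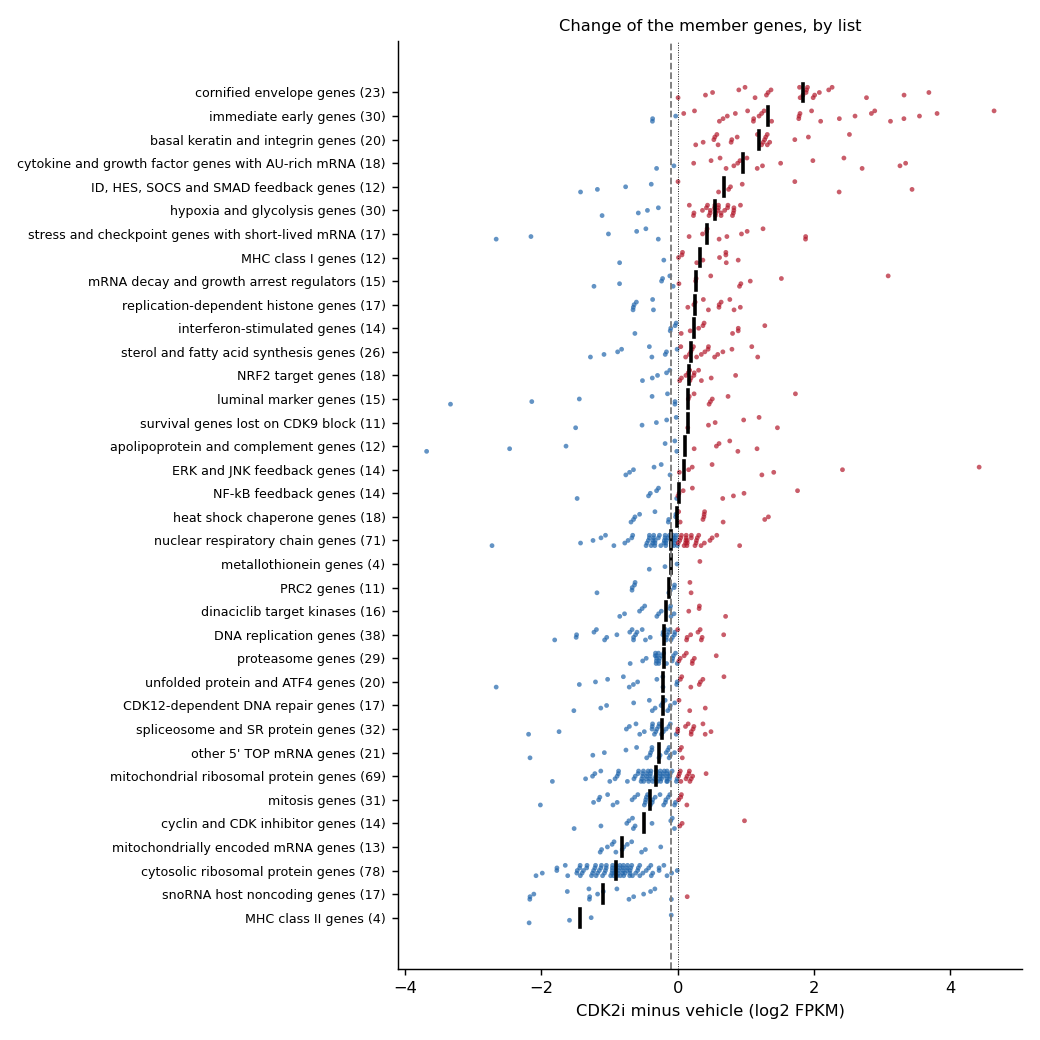
CDK2i minus vehicle (log2 FPKM) of each member gene, by list, 1 point a gene (red above 0, blue below 0), with a black bar at the list median, numbers of genes in brackets, a dotted line at 0 and a dashed line at the median of all 10777 genes, -0.10. Cornified envelope, immediate early, and basal keratin lists lie farthest right, and MHC class II, snoRNA host and ribosomal protein lists farthest left.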

How the data were processed

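The authors deposited 1 table of log2 FPKM values, with a column for each of 3 libraries (0 columns were not mapped to a sample). Total RNA (RNeasy) was sequenced on an Illumina instrument. The submitters' processing notes name CASAVA, STAR and hg19 with no versions, and the counting tool and FPKM normalization are not given in the sources used here. The deposited log2 FPKM carry no pseudocount, and -9 appears to stand for 0.

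Differences of log2 FPKM were computed with Python 3.11.15, pandas 2.3.3, numpy 2.4.6 and scipy 1.17.1, drawn with matplotlib 3.10.9, and tested on simulated data. The limma test of the study needs replicates. Approximate fragment numbers came from the smallest steps of FPKM, and counting SEs cover counting error only. The spread of 1 gene is the 2.5 to 97.5 percentile range of the 200 genes nearest in mean. Symbols were matched to a GRCh37 annotation (92.3%; 9285 by symbol, 664 by older symbol). Named genes were the 15 largest increases and 15 largest decreases at the minimum, up to 4 members with the largest difference in each of 40 lists and those on which its account turns, the target kinases, EZH2, MYC and MCL1; other genes are named as examples after their values were seen, and a few named by the rule are not reported here. The genes compared, the lists and the tests were chosen with earlier results of these data known. Alternatives were other fold thresholds, expression minimums, pseudocounts, scalings, membership rules, coding genes alone and a correction for GC content and length.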

Additional observations from a re-analysis of the deposited data

How the results depend on the processing

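No paired analysis was possible because each group is 1 library, and no library could be left out. Against 214 higher, 534 lower and 28.6% of calls higher, a fold of 1.5 gave 696, 1247 and 35.8%, a fold of 3 gave 87, 159 and 35.4%, no expression minimum gave 340, 1074 and 24.0%, a minimum of 5 gave 105, 91 and 53.6%, and centring on the median gene gave 340, 337 and 50.2%. The share was 46.1% with summed FPKM made equal, 17.3% with sums equal once ribosomal and mitochondrial genes were set aside, and 34.5% relative to the 200 genes nearest in mean (chosen after seeing the data). The 3 scalings add 0.175, 0.149 and -0.145 to each change, which by construction moves the median of all genes from -0.098 to 0.077, 0.051 and -0.243. That median was -0.075 with coding genes only, -0.076 without the GC and length trend and -0.072 with both values above 1. Among list medians 306 of 333 values stayed within the 95% interval of the list median. That interval is taken over the member genes, which are not replicates, and does not measure the difference between tumors. In short lists it is wide, at -2.18 to -0.09 for the 4 MHC class II genes. Within these intervals, signs turned for PRC2, metallothionein and heat shock genes under centring and for ERK feedback, NF-kB and apolipoprotein genes under the last scaling. Under centring and equal sums, respectively, the moved medians were -0.019 and -0.045 (DNA replication), -0.042 and -0.068 (CDK12-dependent repair), -0.73 and -0.76 (ribosomal protein), -0.10 and -0.12 (other 5' TOP), -0.14 and -0.16 (mitochondrial ribosomal protein), 0.085 and 0.059 (respiratory chain), 1.38 and 1.35 (basal keratin), 0.73 and 0.70 (hypoxia) and 0.34 and 0.32 (NRF2), and 2.01 under centring alone (cornified envelope). With those genes set aside they were -1.05 (ribosomal protein), -0.46 (mitochondrial ribosomal protein), -0.24 (respiratory chain), -0.35 (proteasome) and 0.41 (hypoxia). Without the GC and length trend they were -0.77 (ribosomal protein) and -0.012 (respiratory chain), and relative to the nearest genes -0.011 (CDK12-dependent repair). Of 1032 values of single genes 1028 moved by less than the SD of the 200 genes nearest in mean and 0 reversed. The 3 scalings add less than that SD to every gene and cannot reverse a 2-fold change. Their part of this count was therefore fixed in advance. With a pseudocount of 1 FPKM the changes of FKBPL, FAM212A, a clone-named gene and IL17C became -2.58, -2.80, -2.42 and 2.84. The counting SE of the 30 largest changes was at most 0.42 (IL17C) where a transcript length was known, and the lack of replicates limits all of them.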

Other observations

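Hypoxia and glycolysis genes were above vehicle together but by small amounts, in 26 of 30 members with a median of 0.55. None of 26 at the minimum was called higher (background 3.23%). HK2, the hexokinase of the first glycolytic step, stood at 4.20 in vehicle, 5.12 in CDK2i and 4.87 in EZH2i. SLC2A1, the glucose transporter GLUT1, stood at 8.42, 9.25 and 8.42, and VEGFA, the angiogenic factor, at 5.50, 6.33 and 5.70. PFKFB4, a regulator of glycolytic flux, was the 1 member called lower (3.64, 2.54 and 3.37). The EZH2i median of the list was -0.18. Among sterol and fatty acid synthesis genes FASN, fatty acid synthase, stood at 6.54, 7.72 and 7.24 and SCD, the stearoyl desaturase, at 6.74, 7.83 and 7.13, whereas MVK, the mevalonate kinase of sterol synthesis, stood at 3.05, 1.77 and 2.81. The 26 members had a median of 0.20. Unfolded protein and ATF4 genes had a median of -0.22, with 3 of 16 called lower (18.75%, background 8.06%). These were XBP1 (4.58, 3.14 and 5.17), HERPUD1 and TRIB3. The chaperone PDIA6 stood at 6.29, 6.97 and 6.87 and HSPA5, the ER chaperone BiP, at 6.86, 6.92 and 7.35. Proteasome genes had a median of -0.20 with none of 28 called (background 3.23% higher and 8.06% lower). Heat shock chaperone genes had a median of -0.01, above 0 when centred on the median gene. Of 15 at the minimum 1 was called higher (6.67%), CRYAB, a small heat shock protein (3.35, 4.62 and 3.40).

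Interferon-stimulated genes had 14 members of a list of 39 with a median of 0.25. Of 9 at the minimum 1 was called higher (11.11%, background 3.23%), IFI6 (2.61, 3.89 and 3.27). MHC class I genes had a median of 0.33 with none of 9 called (background 3.23% higher and 8.06% lower). The 4 MHC class II members had a median of -1.43 in CDK2i and -2.85 in EZH2i. In apolipoprotein and complement genes the median was 0.12 (-0.03 with sums equal but for ribosomal and mitochondrial genes), with APOC1 and APOE lower (APOE at 7.0, 4.54 and 3.57) and LCN2, a siderophore-binding protein of inflamed epithelium, higher (6.48, 7.64 and 5.49). NRF2 targets had a median of 0.17 and metallothioneins one of -0.10, above 0 when so centred, with no member called. Of genes at -9 on 1 side, 12 were above 1 in CDK2i alone of the pair and 11 above 1 in vehicle alone, and most are clone-named. By chromosome the median ran from -0.17 on chromosome 20 to 0.05 on chromosome 18. On chromosome 20, 30 of 230 genes at the minimum were called lower (13.04%, background 8.06%).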
